A study of Mus musculus with 24 samples.

Results

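The 10 genes described here code for endothelial junction and surface molecules, the Tie receptors with their angiopoietin ligands, and apelin with its receptor. They are Pecam1, Cdh5, Esam, Emcn, Tie1, Tek, Angpt1, Angpt2, Apln and Aplnr. They were chosen by gene symbol from the 14912 genes of the deposited table, and all 10 were present. RNA of the left ventricle was sequenced for 12 wild-type (WT) male C57BL/6J mice that received ANG II by osmotic minipump at 1500 ng/kg/min for 7 days, named the hypertensive-LVH group, and for 12 WT mice of the same sex and strain that received saline, named the control group. No other allele, agent or transgene is given for either group. The hearts were flushed with saline before the ventricle was taken. Further samples of the study were not analysed here.

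Endothelial cells hold to one another through adherens and tight junctions. VE-cadherin, the product of Cdh5, forms the adherens junction, and the products of Pecam1 and Esam bind their like on the neighbouring cell. Tek codes for Tie2, a receptor tyrosine kinase of endothelial cells. Angiopoietin 1 activates it and keeps vessels quiet, whereas angiopoietin 2, released by endothelial cells, can block or activate it according to context, and Tie1 is a partner receptor that modulates Tie2. Apelin is a secreted peptide that acts on the G protein-coupled receptor Aplnr in endothelium and heart.

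The values are FPKM, fragments scaled by transcript length and by the mapped fragments of the sample, which allow levels of different genes to be compared per length. They were shifted and scaled per gene in 4 sets before deposit (numbers 1 to 3, 4 to 6, 7 to 9 and 10 to 12, each with both groups), so values within the sets stand beside the pooled ones. The adjustment also drew on the group labels, which permutations of the deposited values cannot take into account. The sum of all values was 460715 to 515185 after ANG II and 482319 to 567727 in controls, and sequencing depth is not given in the sources used here. As for the tissue, the summed FPKM of 10 cardiomyocyte markers ranged from 35772 to 60552 over all samples, and that of 20 endothelial markers, none of them among the 10 genes, from 1022 to 1418. Control samples 4 to 6 stood apart: they held 359, 245 and 426 negative values, against 22 to 154 in each other sample, and 10850 to 10987 genes at or above 1 FPKM, against 11166 to 11870. Whether the differences seen in samples 4 to 6 come from these 3 control samples was not tested. None of the values of the 10 genes was negative, and all 10 passed the filter of a mean FPKM of at least 0.1 that left 14026 genes to test.

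Pecam1 and Angpt2 were higher in the hypertensive-LVH group, and the other 8 genes did not pass the test. The criterion was an adjusted p-value under 0.05 with limma on log2(FPKM + 1), Benjamini-Hochberg over all genes tested, and 33.5% of those genes passed it (20.9% higher, 12.6% lower). The count of 2 of 10 is no excess over that background. No member passed both this criterion and an absolute log2 fold change over 0.5 in limma, which 5.92% of all genes met. An unadjusted p under 0.05 in limma was found for 2 members. At least 33.5% of all genes had one, since every gene past the adjusted criterion does. The median log2 fold change was -0.04 over the 10 genes and 0.05 over all genes tested. In none of the 10 genes did the groups lie apart without overlap, as they did in 0.756% of all genes. In whole tissue, fewer endothelial cells and less RNA per endothelial cell cannot be told apart.

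**Figure D1:**
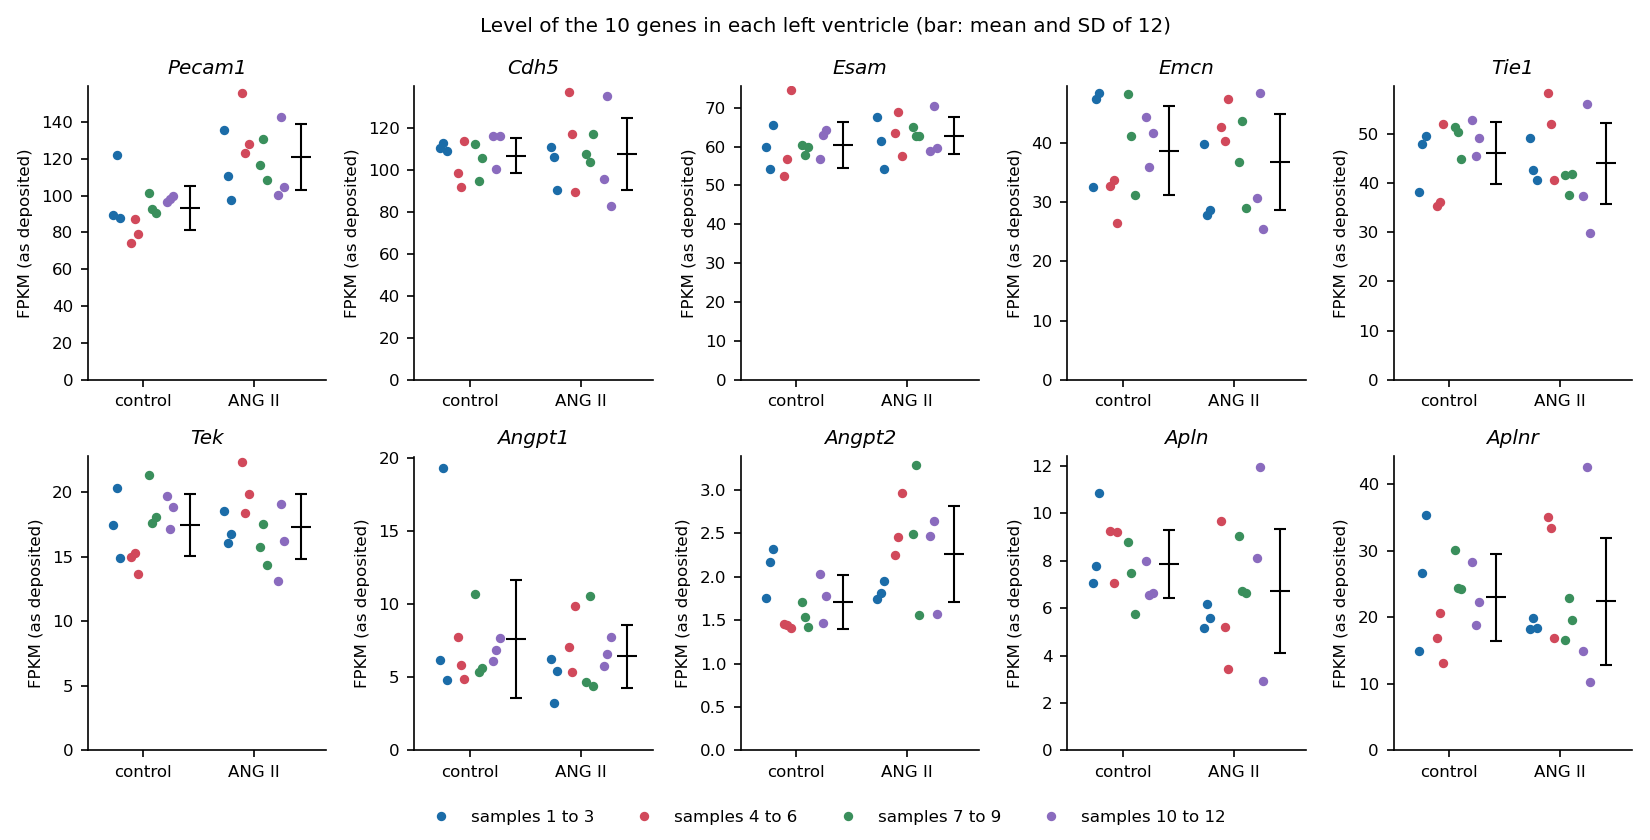
FPKM as deposited of each of the 10 genes (vertical axes, linear, from 0) in the control and ANG II left ventricles, 1 point per sample, coloured by the set of samples, with the mean and SD of 12 beside each group. For Pecam1, 6 of the 12 ANG II samples lie above the highest control sample, and for Angpt2 6 do so, and the groups overlap for all 10 genes.

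Tek, Tie1 and Emcn are shown first by sequence, because their promoters were among the 4 found for the 10 genes in the RefSeq promoter table (GRCm38.p6, 250 bases before to 50 after the start of the gene in RefSeq; the other is that of Apln) and because these 3 genes shared a higher mean after ANG II in samples 4 to 6 and a lower one in the other sets, as described below. The sequences are written 5′ to 3′ on the strand of the gene. Capitals mark the letters CAGGAA, the core bound by many ETS factors, and AGATAA, the core bound by GATA factors, searched on both strands together with CCGGAA and ACGTG, which gave no match. The promoter of Tek lies on the plus strand at chr4:94739039-94739338, that of Tie1 on the minus strand at chr4:118489800-118490099, and that of Emcn on the plus strand at chr3:137340828-137341127. The RefSeq start is the GENCODE vM21 start given below for Tek and Apln, but lies 212 bases inside the GENCODE gene for Tie1 and 11 bases inside it for Emcn, so most of the Tie1 window lies within the longest GENCODE gene model.
Tek: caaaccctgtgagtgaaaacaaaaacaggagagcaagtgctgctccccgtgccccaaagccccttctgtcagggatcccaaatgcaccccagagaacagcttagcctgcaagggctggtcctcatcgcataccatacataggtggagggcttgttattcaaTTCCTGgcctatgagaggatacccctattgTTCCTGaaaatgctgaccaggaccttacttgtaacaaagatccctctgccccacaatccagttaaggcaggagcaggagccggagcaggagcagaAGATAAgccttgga
Tie1: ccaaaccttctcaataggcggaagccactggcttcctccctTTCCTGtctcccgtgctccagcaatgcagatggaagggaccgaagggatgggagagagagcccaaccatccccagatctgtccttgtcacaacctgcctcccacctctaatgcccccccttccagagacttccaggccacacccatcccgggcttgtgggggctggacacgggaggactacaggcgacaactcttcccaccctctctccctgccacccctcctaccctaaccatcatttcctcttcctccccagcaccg
Emcn: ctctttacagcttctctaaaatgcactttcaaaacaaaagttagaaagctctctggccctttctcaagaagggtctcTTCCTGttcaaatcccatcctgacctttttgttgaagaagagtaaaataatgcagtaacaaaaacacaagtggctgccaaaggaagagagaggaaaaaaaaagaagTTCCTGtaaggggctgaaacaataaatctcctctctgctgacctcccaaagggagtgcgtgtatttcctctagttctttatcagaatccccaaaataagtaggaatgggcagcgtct
All capitals but 1 run are TTCCTG, which is CAGGAA on the other strand. It starts at -89 and -59 in Tek, at -209 in Tie1 and at -173 and -67 in Emcn, counted from the RefSeq start, and it occurs once at -112 in Apln. The other run, AGATAA, starts at 37 in Tek. CAGGAA was held on either strand by 30.6% of the 32851 promoters of the table and AGATAA by 11.2%. GC content was 52.0% in Tek, 60.3% in Tie1 and 41.0% in Emcn, against a median of 52.7% over the table.

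Pecam1 (ENSMUSG00000020717.19, chromosome 11, 106654217 to 106750628, GRCm38, GENCODE vM21, protein-coding) codes for CD31, which is also carried by platelets and leukocytes. Its level was 97.7 FPKM in the lowest, 119.8 in the median and 155 in the highest sample of the hypertensive-LVH group, and 74.4, 91.7 and 122 FPKM in the control group. All 12 samples of the hypertensive-LVH group lay above the control median, and 8 control samples lay below the lowest of them. The group means were 121 ± 17.9 (SD, n = 12) and 93.3 ± 12.1 FPKM (SD, n = 12). The log2 fold change was 0.37 ± 0.08 (SE, adjusted p = 7.77e-04, limma), or 1.29-fold on the log2(FPKM + 1) scale with a 95% interval from 1.16 to 1.44. When labels were exchanged within the 4 sets, the difference of 27.8 FPKM had p = 8.25e-04 (exact permutation test, two-sided).

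As deposited, the Pecam1 difference was positive in each set of samples. In samples 4 to 6 it was 55.2 FPKM, with means of 136 and 80.4 FPKM, whereas in the other sets it ranged from 14.9 to 23.7 FPKM. Its log2 fold change with samples 4 to 6 of each group left out was 0.25 ± 0.08 (SE, adjusted p = 0.0297, limma), and 20.1% of all genes passed in that fit. For Pecam1 the spacing of the values gave 2 possible sets of differences before the adjustment. They were 7.38, 58.7, 26.5 and 18.1 FPKM in the order of the sets, or -5.32, 53.2, -0.280 and 38.0 FPKM, so the direction in samples 1 to 3 and 7 to 9 depends on the adjustment under the second.

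Cdh5 (ENSMUSG00000031871.9, chromosome 8, 104101625 to 104144511) had the highest mean level of the 10 genes over all 24 samples, at 107.3 FPKM, nearly the 107.2 FPKM of Pecam1. It ran from 82.6 over a median of 107 to 137 FPKM after ANG II infusion and from 91.7 over 109.6 to 116 FPKM in the control group. The groups overlapped, and both the lowest and the highest values belonged to the hypertensive-LVH group. The log2 fold change was 0.00 ± 0.07 (SE, adjusted p = 0.987, limma), with a 95% interval of the fold from 0.905 to 1.11, and its sign turned with median-ratio scaling and with quantile normalization.

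The order of the leading pair of junction genes differed between the groups. Cdh5 was higher than Pecam1 in 11 of 12 control samples and in 1 of 12 samples of the hypertensive-LVH group. The log2 ratio of Pecam1 to Cdh5, a comparison chosen after the values were seen, was 0.17 ± 0.17 (SD, n = 12) after ANG II infusion and -0.20 ± 0.18 (SD, n = 12) in controls. All 12 samples of the hypertensive-LVH group lay above the control median and 6 above the highest control sample, control sample 2, in which Pecam1 exceeded Cdh5. The difference of 0.37 had p = 2e-05 (permutation test) and p = 1.125e-04 with labels exchanged within the sets (exact permutation test). These p-values do not allow for the choice of the pair. The log2 fold change of Pecam1 alone was also 0.37, and that of Cdh5 was 0.00. As deposited, the difference in the ratio was 0.32, 0.58, 0.24 and 0.33 in the 4 sets in order. It was 0.30 without samples 4 to 6 of each group (exact permutation test within the sets, p = 0.00225). Before the adjustment Cdh5 differed by 5.36 FPKM in samples 7 to 9, and Pecam1 by 26.5 or -0.280 FPKM under its 2 possible solutions. In the other sets the Pecam1 difference was the higher under both. The ratio before the adjustment was not tested.

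**Figure D2:**
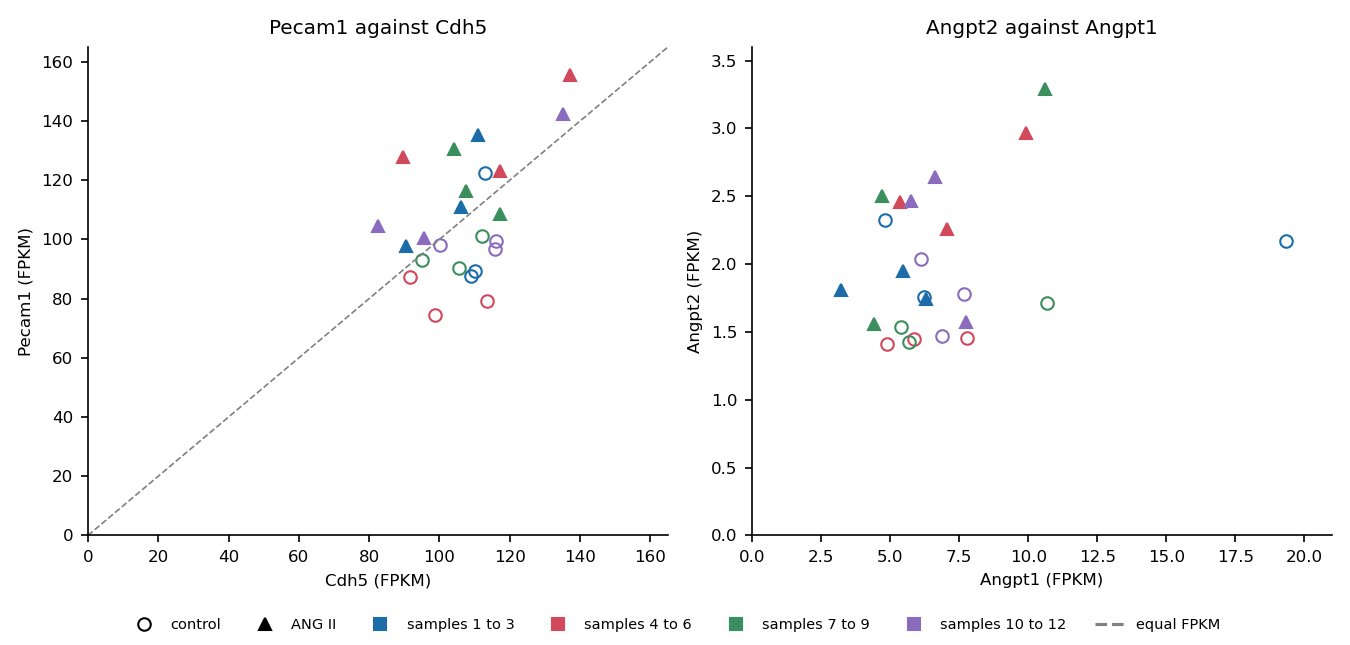
Left, Pecam1 against Cdh5, and right, Angpt2 against Angpt1, both axes in FPKM, 1 point per sample; open circles are control and filled triangles ANG II samples, coloured by the set of samples, and the dashed line marks equal FPKM. All ANG II samples but 1 lie above the dashed line and all control samples but 1 below it, and on the right the highest Angpt2 value is 3.29 FPKM (ANG II) and the highest Angpt1 value 19.3 FPKM (control).

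Esam (ENSMUSG00000001946.14, chromosome 9, 37528078 to 37538319) codes for an immunoglobulin-like adhesion molecule of tight junctions and platelets. It ran from 54.3 over 62.6 to 70.5 FPKM after ANG II infusion and from 52.4 over 60.0 to 74.5 FPKM in the control group, and the groups overlapped nearly throughout. The coefficient of variation was 7.61% and 9.72%, respectively, the lowest of the 10 after ANG II, while that of Cdh5 was lower in controls at 7.89%. Its log2 fold change was 0.05 ± 0.05 (SE, adjusted p = 0.409, limma), and the interval of the fold, 0.967 to 1.12, was the narrowest of the 10.

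Emcn (ENSMUSG00000054690.17, chromosome 3, 137341067 to 137432185) codes for endomucin, a sialomucin of the capillary and venous endothelial surface that counters leukocyte adhesion. Its levels were 25.4, 38.3 and 48.4 FPKM (lowest, median, highest) in the hypertensive-LVH group and 26.4, 38.5 and 48.4 FPKM in the control group, which cover nearly the same range. A log2 fold change of -0.08 ± 0.12 (SE, adjusted p = 0.625, limma) had an interval of the fold from 0.804 to 1.12. Behind this lay differences of opposite sign, since the mean was 43.5 against 30.9 FPKM in samples 4 to 6 and 32.1 against 42.8 FPKM in samples 1 to 3.

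The Tie receptors did not differ between the groups beyond their spread. Tek (ENSMUSG00000006386.15, chromosome 4, 94739289 to 94874976) ran from 13.1 over 17.2 to 22.3 FPKM after ANG II infusion and from 13.7 over 17.6 to 21.3 FPKM in the control group. Its log2 fold change was -0.01 ± 0.08 (SE, adjusted p = 0.933, limma), with an interval of the fold from 0.891 to 1.11. Tie1 (ENSMUSG00000033191.14, chromosome 4, 118471191 to 118490061) ran from 29.9 over 41.8 to 58.3 FPKM after ANG II infusion and from 35.4 over 48.5 to 52.8 FPKM in the control group. After ANG II, 4 of 12 samples lay above the control median of Tie1, and 2 of these above the highest control sample. Its log2 fold change was -0.08 ± 0.09 (SE, adjusted p = 0.543, limma), with an interval of the fold from 0.831 to 1.08. The log2 ratio of Tie1 to Tek differed by -0.07 (permutation test, p = 0.462, the same when adjusted over the 3 ratios planned).

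For both receptors the difference had the opposite sign in samples 4 to 6, the set that holds the 3 control samples with the most negative values. There Tek averaged 20.2 FPKM in the hypertensive-LVH and 14.6 FPKM in the control group, against 15.9 and 19.0 FPKM in samples 7 to 9. Tie1 averaged 50.3 against 41.2 FPKM in samples 4 to 6 and 40.4 against 48.9 FPKM in samples 7 to 9. The log2 fold changes with samples 4 to 6 of each group left out were -0.16 ± 0.07 (SE, adjusted p = 0.124, limma) for Tek and -0.20 ± 0.09 (SE, adjusted p = 0.125, limma) for Tie1. The mean within-set difference of Tek was -0.111 FPKM as deposited and 0.250 FPKM before the adjustment, so its sign depends on that step.

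Angpt2 (ENSMUSG00000031465.6, chromosome 8, 18690263 to 18741562) had the lowest level of the 10 genes and was the second one past the threshold. Its values were 1.56, 2.36 and 3.29 FPKM (lowest, median, highest) in the hypertensive-LVH group and 1.41, 1.62 and 2.32 FPKM in the control group. After ANG II, 10 of 12 samples lay above the control median and 6 above the highest control sample. The means were 2.27 ± 0.553 (SD, n = 12) and 1.71 ± 0.315 FPKM (SD, n = 12), a ratio of 1.33. The log2 fold change was 0.26 ± 0.08 (SE, adjusted p = 0.0184, limma). This is 1.2-fold on the log2(FPKM + 1) scale, with a 95% interval from 1.06 to 1.35. At so low a level the added 1 shrinks the fold, and with a pseudocount of 0.1 the log2 fold change was 0.37 (adjusted p = 0.0196, limma). With labels exchanged within the sets the difference of 0.558 FPKM had p = 0.0107 (exact permutation test).

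In samples 1 to 3 Angpt2 was lower in the hypertensive-LVH group, with means of 1.84 against 2.08 FPKM. In samples 4 to 6 it was 2.56 against 1.44 FPKM, in samples 7 to 9 2.45 against 1.56 FPKM and in samples 10 to 12 2.23 against 1.76 FPKM. Before the adjustment the differences were -0.417, 1.06, 0.967 and 0.470 FPKM in that order (mean 0.520, exact permutation test within the sets, p = 0.0253). The log2 fold change was 0.17 without samples 4 to 6 of each group (adjusted p = 0.241, limma) and 0.21 without samples 7 to 9 (adjusted p = 0.0832, limma), both from 9 samples a group. It was 0.14 with quantile normalization (adjusted p = 0.104, limma), where 34.5% of all genes passed.

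Angpt1 (ENSMUSG00000022309.9, chromosome 15, 42424723 to 42676977), the ligand made mainly by mural and other perivascular cells, ran from 3.23 over 6.03 to 10.6 FPKM after ANG II infusion and from 4.82 over 6.17 to 19.3 FPKM in the control group. The value of 19.3 FPKM belonged to control sample 2 alone, the next highest control value being 10.7 FPKM. The log2 fold change was -0.17 ± 0.18 (SE, adjusted p = 0.480, limma), with an interval of the fold from 0.690 to 1.15, and it was -0.05 without control sample 2.

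Taking both angiopoietins within each sample, Angpt1 exceeded Angpt2 in all 24 samples, and the log2 ratio of Angpt2 to Angpt1 was -1.15 ± 0.34 (SD, n = 12) after ANG II infusion and -1.58 ± 0.48 (SD, n = 12) in controls. After ANG II it lay in 11 of 12 samples above the control median, and the difference was positive in each set, at 0.58, 0.32, 0.56 and 0.25. In samples 1 to 3 the control ratios were -1.39, -2.68 and -0.81, in order of number. The lowest, control sample 2, is the sample with the Angpt1 value of 19.3 FPKM. After ANG II the ratios of that set were -1.41, -0.59 and -1.13, and the ratio without control sample 2 was not tested. The difference of 0.43 had p = 0.0160 (permutation test, adjusted over 3 ratios 0.0480) and p = 0.0231 with labels exchanged within the sets (exact permutation test, adjusted 0.0692). With a pseudocount of 0.1 in place of 1 the difference was 0.56 (permutation test, adjusted p = 0.0205), and within the sets it was then past the threshold (exact permutation test, adjusted p = 0.0333), so the call within the sets depends on the pseudocount. With samples 4 to 6 of each group left out, neither pseudocount gave a call (exact permutation test within the sets, adjusted p = 0.170 and 0.137).

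Apln (ENSMUSG00000037010.7, chromosome X, 48025146 to 48034853) ran from 2.94 over 6.39 to 11.9 FPKM after ANG II infusion and from 5.76 over 7.63 to 10.8 FPKM in the control group. Of the hypertensive-LVH group, 5 samples lay below the lowest control sample and 1 above the highest. Between the groups the log2 fold change was -0.26 ± 0.15 (SE, adjusted p = 0.180, limma), with an interval of the fold from 0.674 to 1.03. In samples 1 to 3 Apln averaged 5.65 against 8.57 FPKM and in samples 4 to 6 6.10 against 8.50 FPKM, whereas in samples 7 to 9 it averaged 7.47 against 7.34 FPKM and in samples 10 to 12 7.66 against 7.06 FPKM. Before the adjustment the differences were -3.04, -2.38, -0.367 and 1.57 FPKM in that order, so the sign in samples 7 to 9 depends on that step. In samples 10 to 12 the deposited difference in mean log2(FPKM + 1) was -0.05, so the sign there depends on the scale.

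Aplnr (ENSMUSG00000044338.9, chromosome 2, 85136225 to 85139923) had a wide range, from 10.3 over 19.0 to 42.6 FPKM after ANG II infusion and from 13.1 over 23.3 to 35.3 FPKM in the control group. Only 3 samples of the hypertensive-LVH group lay above the control median. The log2 fold change was -0.08 ± 0.18 (SE, adjusted p = 0.750, limma), and the interval of the fold, 0.725 to 1.23, allows a change in either direction. In samples 4 to 6 it averaged 28.5 against 16.9 FPKM. In samples 1 to 3 and 7 to 9 it was lower in the hypertensive-LVH group, at 18.9 against 25.7 and 19.7 against 26.3 FPKM. The log2 ratio of Apln to Aplnr differed by -0.18 (permutation test, p = 0.339, adjusted over 3 ratios 0.462), with -1.18 in samples 4 to 6 and 0.43 in samples 7 to 9.

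**Figure D3:**
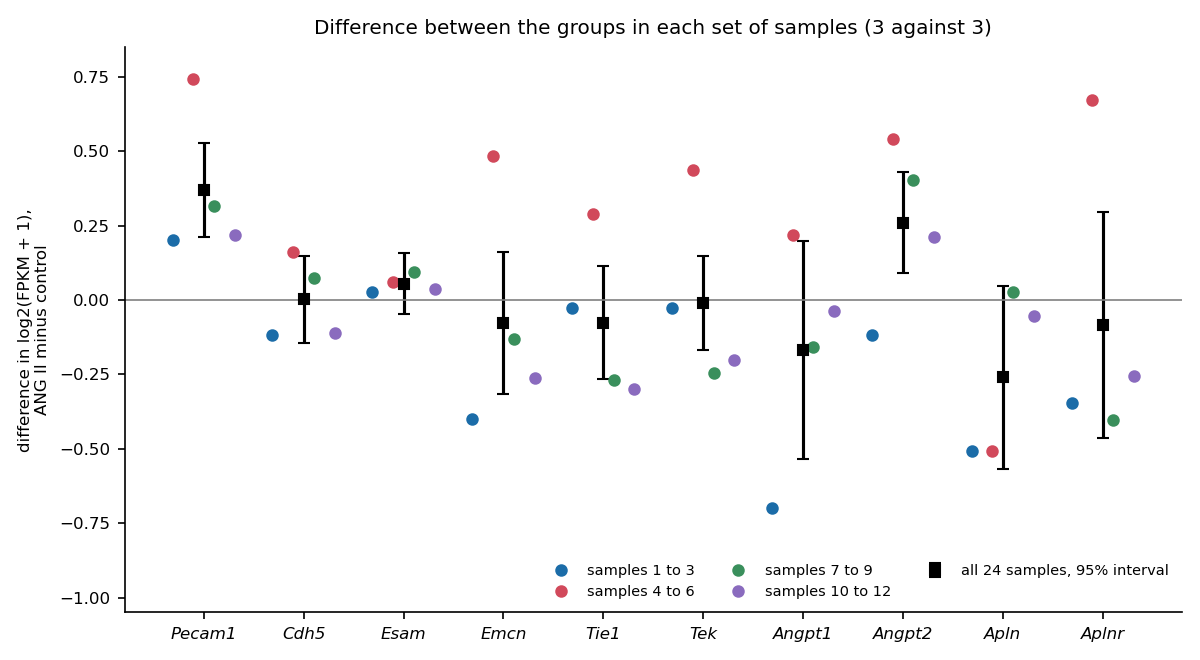
Difference in mean log2(FPKM + 1), ANG II minus control (vertical axis), for each of the 10 genes; coloured points are the 4 sets of 3 against 3 samples, and squares with bars are the log2 fold changes over all 24 samples with 95% intervals. Samples 4 to 6 give the highest point for Pecam1, Cdh5, Emcn, Tie1, Tek, Angpt1, Angpt2 and Aplnr, and Pecam1 and Esam lie above 0 in every set.

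Emcn, Tie1, Tek, Angpt1 and Aplnr were each higher in the hypertensive-LVH group in samples 4 to 6 and lower in the other 3 sets. The interaction of group and set was past the adjusted threshold in limma for 0 of the 10 genes, against 7.49% of all genes. An unadjusted p under 0.05 in this test was found for 4 of the 10. The share of all genes at that level was not counted, so no excess can be read from this count. The nearest was Tek (F = 6.17, adjusted p = 0.0505), followed by Angpt2 (adjusted p = 0.168), Emcn (adjusted p = 0.175) and Pecam1 (adjusted p = 0.198).

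Ordered by mean FPKM over all samples, the genes were Cdh5, Pecam1, Esam, Tie1, Emcn, Aplnr, Tek, Apln, Angpt1 and Angpt2. Pecam1 exceeded Esam, Esam exceeded Tie1, Emcn exceeded Aplnr, Tek exceeded Apln and Angpt1 exceeded Angpt2 in all 24 samples. Tie1 exceeded Emcn in 22 of 24 samples and Aplnr exceeded Tek in 19. Cdh5 exceeded Pecam1 in 12 of 24 samples, 11 in the control and 1 in the hypertensive-LVH group, so this count joins opposite orders of the groups. Apln exceeded Angpt1 in 15 of 24 samples, 8 in the control and 7 in the hypertensive-LVH group. These counts were not tested.

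A score of other endothelial genes was higher in the hypertensive-LVH group, although the share of single markers that passed was near the background. The score of 20 endothelial markers, the mean of their log2(FPKM + 1), was 5.11 ± 0.13 (SD, n = 12) after ANG II infusion and 4.97 ± 0.08 (SD, n = 12) in controls. The difference of 0.14 had p = 0.00315 (permutation test) and p = 0.00628 within the sets (exact permutation test), and it was 0.09 without samples 4 to 6 of each group (exact permutation test, p = 0.102). Of the 20 markers, 6 were higher, 1 was lower and 13 did not pass, which makes 35.0% called against 33.5% of all genes, with a median log2 fold change of 0.17. Ecscr, an endothelial surface regulator, rose by 0.47, the progenitor and endothelial sialomucin Cd34 by 0.39 and the transcription factor Sox17 by 0.33 on the log2 scale. The 1 lower marker was Kdr, with a log2 fold change of -0.23 (adjusted p = 0.0309, limma). Cd34 differed most in samples 4 to 6 (1.28, against -0.06 to 0.19 in the other sets) and was at 0.10 without them (adjusted p = 0.626, limma), Sox17 was at 0.34 (adjusted p = 0.0711, limma), and Ecscr kept its call at 0.40 (adjusted p = 0.0382, limma). With samples 4 to 6 of each group left out, 3 markers were higher and the median was 0.08, and with quantile normalization 2 were higher and 2 lower, with a median of 0.10.

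With the endothelial marker score as a covariate, the estimates of the 10 genes shifted downwards. Aplnr, Emcn, Tie1 and Cdh5 were then past the threshold and lower in the hypertensive-LVH group, as were 10.4% of all genes, and none was higher, as were 6.07% of all genes. Their log2 fold changes were -0.50 ± 0.17 (SE, adjusted p = 0.0487, limma) for Aplnr, -0.35 ± 0.10 (SE, adjusted p = 0.0206, limma) for Emcn, -0.29 ± 0.08 (SE, adjusted p = 0.0177, limma) for Tie1 and -0.18 ± 0.06 (SE, adjusted p = 0.0427, limma) for Cdh5. The estimate of Pecam1 was 0.16 ± 0.06 (SE, adjusted p = 0.0574, limma) and that of Angpt2 0.12 ± 0.09 (SE, adjusted p = 0.369, limma), so neither was past the threshold in this fit. These estimates are relative to the 20 markers and are not changes of level.

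**Figure D4:**
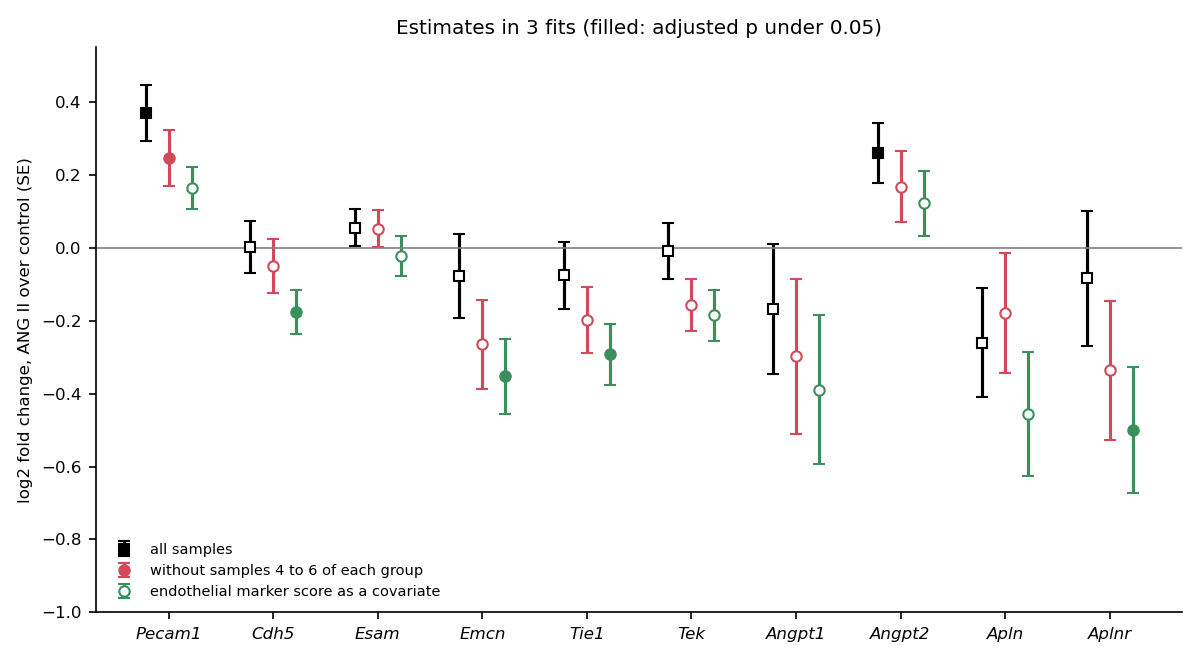
Log2 fold change of each gene, ANG II over control, with its SE (vertical axis) from limma on all samples (black squares), without samples 4 to 6 of each group (red circles) and with the endothelial marker score as a covariate (green circles); filled symbols have an adjusted p under 0.05. Pecam1 goes from 0.37 to 0.25 and 0.16, and Aplnr, Emcn, Tie1 and Cdh5 are filled and below 0 only with the covariate.

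Other cells carry Pecam1 too. All 12 of 12 macrophage markers were past the threshold and higher after ANG II. Their summed levels ran from 389 to 1104 FPKM against 282 to 629 FPKM, and the median log2 fold change was 0.63. Without samples 4 to 6 of each group 2 of 12 were past the threshold and higher, as were 8.4% of all genes, and the median was 0.45. Cd68 rose by 0.92, Itgam by 0.84 and Lyz2 by 0.75 on the log2 scale, and in that fit Itgam, at 0.56, narrowly kept its call, whereas Cd68 (0.76, adjusted p = 0.0539, limma) and Lyz2 (0.50, adjusted p = 0.101) did not. Of 9 platelet markers tested, 2 were higher, Itgb3 by 0.97 and Gp1bb by 0.58, and 7 did not pass. That makes 22.2% called, below the 33.5% of all genes. The summed level of the platelet list ranged from 16.8 to 56.2 FPKM against 22.2 to 36.6 FPKM. None of the macrophage markers was at 0 in any sample, and among the platelet markers Ppbp and Gp9 were at 0 in 1 sample each and Treml1 in 2. The part of macrophages and platelets in the Pecam1 difference was not tested.

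Several of the 10 genes varied together between mice. After the mean of each group in each set was removed, 38 of the 45 pairs of genes had a positive Pearson's r over 24 samples, with a median of 0.37 and a range from -0.39 to 0.86. Both r and Spearman's rho passed an adjusted p-value of 0.05 (permutation within group and set) for 4 pairs. The shares of positive and of called pairs among other genes were not counted, so whether this is particular to the 10 was not tested. For each of the 10, the gene with the highest rho in the ranking given below was not one of the 10. Cdh5 and Tie1 had r = 0.86 and rho = 0.80 (permutation test, adjusted p = 0.0121 and 0.0211), with r = 0.78 without the 2 farthest samples. Pecam1 and Tek had r = 0.81 and rho = 0.74 (permutation test, adjusted p = 0.0121 and 0.0214), with r = 0.71 without these. For Angpt2 and Emcn r was 0.71 and rho 0.69 (permutation test, adjusted p = 0.0199 and 0.0298), and for Tek and Angpt1, receptor and ligand, r was 0.68 and rho 0.67 (permutation test, adjusted p = 0.0249 and 0.0370). Without the 2 farthest samples r was 0.69 and 0.80 for these pairs.

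**Figure D5:**
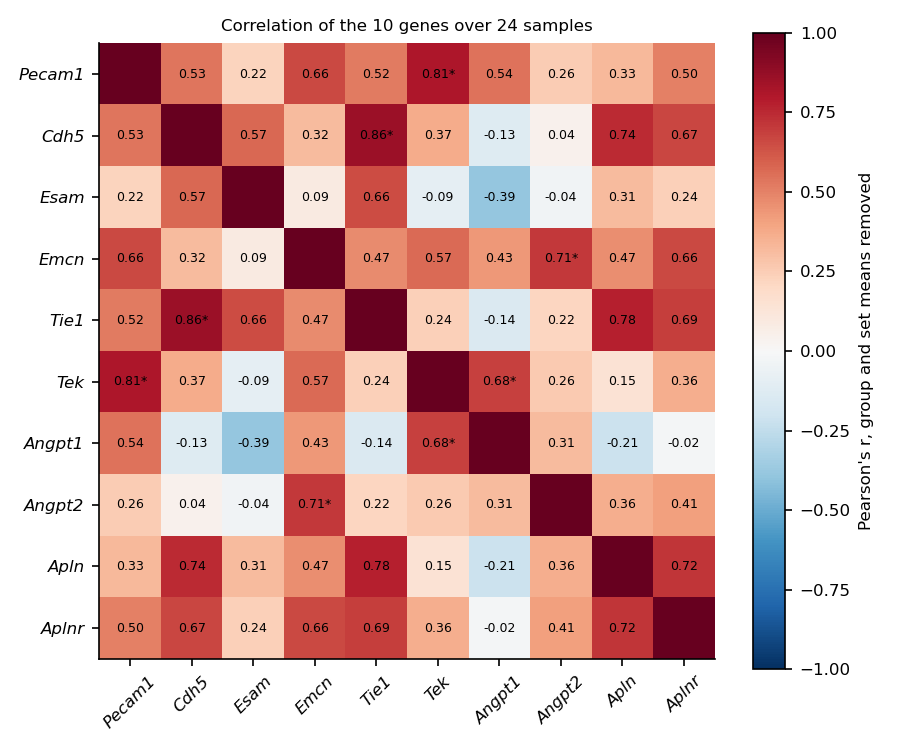
Pearson's r of log2(FPKM + 1) between the 10 genes over 24 samples after the mean of each group in each set was removed (colour scale from -1 to 1; an asterisk marks pairs past the adjusted p by both r and rho). Most squares are red, that is positive, and the highest is that of Cdh5 with Tie1 at 0.86, while Angpt1 with Esam is lowest at -0.39.

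Genes that act beside the 10 were counted from lists of their pathways. Among 18 tested partners of VE-cadherin, such as catenins and small GTPases, 7 were higher and 0 lower in limma, with 11 not past the threshold and a median log2 fold change of 0.14. The share called was 38.9% here, 47.6% in the Tie2 pathway and 42.1% in the apelin pathway, against 33.5% of all genes. The small GTPases Rap1b and Cdc42 rose by 0.30 and 0.26 and the catenin Ctnnd1, which keeps cadherins at the membrane, by 0.22 on the log2 scale. Without samples 4 to 6 of each group 2 were higher, as were 8.4% of all genes, and Rap1b kept its call (adjusted p = 0.0419, limma), whereas Cdc42 (0.18, adjusted p = 0.0608) and Ctnnd1 (0.15, adjusted p = 0.215) did not. Of 15 other endothelial junction genes tested, 13.3% were called, below the 33.5% of all genes. The gap junction gene Gja4 was higher, by 0.47, and Cd99l2, which serves leukocyte passage, fell by 0.12 on the log2 scale. Without samples 4 to 6 of each group neither was past the threshold (0.15 and -0.08, adjusted p = 0.20 and 0.161, limma), while 2 genes of the list were lower.

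In the Tie2 pathway, 8 of 21 tested genes were higher and 2 lower, with a median of 0.17. Svep1, a large extracellular adhesion protein, had means of 6.81 ± 2.31 (SD, n = 12) and 3.97 ± 1.61 FPKM (SD, n = 12) and a log2 fold change of 0.70 (adjusted p = 0.00926, limma), but samples 4 to 6 gave 2.15 and the other sets 0.14 to 0.34, and without samples 4 to 6 it was 0.22 (adjusted p = 0.0749, limma). Itga5, the fibronectin receptor chain, had means of 45.2 ± 5.69 and 28.8 ± 4.61 FPKM (SD, n = 12) and a log2 fold change of 0.64 (adjusted p = 3.43e-06, limma), positive in each set and 0.60 without samples 4 to 6 of each group. Klf4, a flow-responsive transcription factor, rose by 0.46 on the log2 scale, and its 0.33 without samples 4 to 6 was not past the threshold (adjusted p = 0.0888, limma). When samples 4 to 6 of each group were left out, 3 members of this list were higher and 1 was lower.

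In the apelin pathway, 7 of 19 tested genes were higher and 1 lower, with a median of 0.14. Arrb2, a β-arrestin that turns off receptors of this class, rose by 0.59, Klf4, which this list also holds, by 0.46, and Hif1a, the oxygen-regulated factor known to act on Apln, by 0.39 on the log2 scale. Hif1a was positive in each set and kept its call without samples 4 to 6 of each group (adjusted p = 0.0150, limma), whereas Arrb2 did not (0.34, adjusted p = 0.112, limma). In that fit 4 genes were higher and 1 was lower, and the median was 0.01.

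Sprouting tip cell genes, which include several basement membrane genes, were higher in 10 of 16 and lower in 0, with a median of 0.38, which makes 62.5% called. Plaur, the urokinase receptor, rose by 0.65, Igfbp3 by 0.64 and Nid2 by 0.56 on the log2 scale. When samples 4 to 6 of each group were left out, 4 of the list were higher, and Plaur kept its call (0.82, adjusted p = 0.00875, limma), whereas Igfbp3 (0.42, adjusted p = 0.112) and Nid2 (0.25, adjusted p = 0.172) did not. The last pair was at -0.01 and -0.04 in samples 1 to 3. Of 12 capillary markers, 1 was higher and 4 were lower, with a median of -0.13, which makes 41.7% called against 33.5% of all genes. The water channel Aqp1 fell by 0.47, the water and glycerol channel Aqp7 by 0.42 and the endothelial receptor Cd300lg by 0.38 on the log2 scale. Cd300lg was lower in all 4 sets, with means of 48.5 ± 4.21 and 63.8 ± 7.11 FPKM (SD, n = 12, adjusted p = 4.18e-05, limma), and without samples 4 to 6 of each group 1 capillary marker was higher and 3 were lower, with Aqp1 no longer past the threshold (-0.30, adjusted p = 0.190, limma).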

How the data were processed

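Polyadenylated RNA was sequenced with paired ends by the authors, and the notes of the submitters name HISAT, Bowtie2 and RSEM; versions and genome build are not given in the sources used here. The deposited score is an FPKM value per gene symbol that the authors had adjusted, a step their methods do not name: 2741 values (0.766%) were negative, and exact ties (282 to 600 genes per pair of samples within a set, 0 across sets once 278 genes in whole hundredths were left out) showed 4 sets. Scaling in each set was recovered for 9 of the 10 genes from steps of 0.01 FPKM (tested on simulated data, with 97 of 100 recovered and 0 of 100 when values were mixed).

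Here, negative values were set to 0, log2(FPKM + 1) was tested with limma 3.58.1 in R 4.3.3, with an intensity trend and no covariate, and a mean FPKM of 0.1 was the minimum. On simulated data over 14026 genes, 198 of 200 changed genes and 1 unchanged gene were called. A call there required the adjusted p and the threshold of the absolute log2 fold change together. The simulated shift was larger than the log2 fold changes of the 10 genes. These counts therefore do not describe calls on the adjusted p alone or the detection of shifts of that size, which were not tested. Python 3.11.15, numpy 2.4.6, pandas 2.3.3, scipy 1.17.1 and matplotlib 3.10.9 were used for the rest. Permutation tests were two-sided, with 100000 resamples, or all 160000 relabelings within the sets. The extraction note of the labels speaks of CRC cells, whereas the tissue label is left ventricle. The 10 genes, the lists and the alternatives were chosen with earlier results of these data known. Named with values are the 10, Kdr, and up to 3 genes of each list with the largest absolute log2 fold change past the threshold. So are the genes most like each member (mean of at least 1). Several genes are in more than 1 list, among them Klf4, Gja4, Sox17, Kdr, Ptprb and Gpihbp1, so the counts of the lists are not independent. Afdn, Nectin2, Nectin3, Grb7 and Apela were not found in the table. Counts of lists without samples 4 to 6, the same with quantile normalization and the ratio of Pecam1 to Cdh5 were added after the data were seen. Alternatives were median-ratio scaling or quantile normalization between samples, a pseudocount of 0.1, a minimum mean of 1 or none, no trend, a Wilcoxon rank-sum test, a replicate block, a term for the sets, leaving out each sample or set, and the endothelial marker score as a covariate. A single value of a platelet marker is not reported here.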

Additional observations from a re-analysis of the deposited data

How the results depend on the processing

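Limits are the unknown depth, which prevents an estimate of counting error for low genes such as Angpt2, and the adjustment in sets, which used the groups and whose offsets are not known. The count of the 10 genes past the adjusted p was 2 in each of the 24 fits that left out 1 sample. It was 1, Pecam1 alone, with quantile normalization, without samples 4 to 6 and without samples 7 to 9 of each group, and with the replicate number of the titles as a block (adjusted p of Angpt2 0.0661, limma). It was 4 with the endothelial marker score as a covariate. The block is no pairing, since samples of the same number correlated from -0.56 to -0.00 over 12 pairs, 0 of them over 0.1, and 0 matched their own number best. All genes past the adjusted p numbered 4697 in the main analysis (2928 higher, 1769 lower), 2824 with the block, 2810 without samples 4 to 6 (1177 higher, 1633 lower), 2305 with the covariate and 4038 to 5160 with 1 sample left out. Quantile normalization gave 1926 higher and 2921 lower. Signs turned only in members that were not past the threshold as reported. For Cdh5 the log2 fold change was -0.036 with median-ratio scaling, -0.0052 with quantile normalization, -0.051 without samples 4 to 6, -0.022 without samples 7 to 9 and -0.18 with the covariate, and -0.031 to 0.035 with 1 sample left out. For Tek it was 0.068 without samples 7 to 9, 0.055 without samples 10 to 12 and -0.042 to 0.023 with 1 sample left out. Without samples 1 to 3 it was 0.0085 for Angpt1, 0.0044 for Aplnr and 0.030 for Emcn. Aplnr gave 0.023 without samples 7 to 9 and -0.17 to 0.0027 with 1 sample left out, and Esam -0.022 with the covariate. In FPKM, Cdh5 differed by -3.06 without samples 4 to 6, Tek by 0.250 before the adjustment and Angpt2 by 0.371 without samples 4 to 6 (exact permutation test, p = 0.140). The log2 ratio of Angpt2 to Angpt1 stayed 0.43 within the sets (exact permutation test, adjusted p = 0.0692), was 0.46 without samples 4 to 6 (adjusted p = 0.170) and 0.56 with a pseudocount of 0.1 (permutation test, adjusted p = 0.0205, and 0.0333 within the sets), and that of Apln to Aplnr was 0.16 without samples 4 to 6. The cause of these changes was not tested.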

Other observations

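Markers of other vessel and tissue cells were counted in the same limma fit, in which 33.5% of all genes passed. The share called was 50% of the pericyte and of the cardiomyocyte markers, 62.5% of the lymphatic and 60% of the fibroblast markers. It was 25% of the arterial markers and 25% of the venous and endocardial markers. Of 10 pericyte markers, 2 were higher and 3 lower, with a median log2 fold change of 0.04. Vtn fell by 0.76 and the potassium channel Kcnj8 by 0.58 on the log2 scale, and both were lower in all 4 sets, while the adhesion molecule Mcam, which endothelium also carries, rose by 0.59. Of 8 lymphatic markers, 5 were higher and 0 lower (median 0.37), among them Pdpn by 0.72, Mmrn1 by 0.62 and the hyaluronan receptor Lyve1 by 0.48. Without samples 4 to 6 of each group, 1 pericyte marker was higher and 3 were lower, and 2 lymphatic markers were higher, while Pdpn was at 0.41 (adjusted p = 0.163, limma).

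Of 12 arterial markers, 3 were higher and 0 lower (median 0.15), which makes 25% called, below the 33.5% of all genes. These were Fbln5 with 0.68, Gja4 with 0.47 and Sox17 with 0.33, and 0 arterial markers were higher without samples 4 to 6 of each group. Of 12 venous and endocardial markers, 3 were higher and 0 lower (median 0.18), also 25% called. They were Tmem100 with 0.63, Ackr1 with 0.62 and the leukocyte adhesion receptor Selp with 0.60, the last at 0.45 without samples 4 to 6 (adjusted p = 0.0878, limma). Of 10 fibroblast markers, 5 were higher and 1 lower. Collagen genes led them, Col1a1 with 2.77, Col3a1 with 2.63 and Col1a2 with 2.49, against 0.77, 0.39 and 0.51 without samples 4 to 6 of each group (adjusted p = 0.0171, 0.0866 and 0.0507, limma). Each of these collagen genes was at or below 0 in 3 samples as deposited. Their differences in samples 4 to 6 were 8.77, 9.32 and 8.40 in the same order, against 0.37 to 1.24 in the other sets. Of 10 cardiomyocyte markers, 0 were higher and 5 lower (median -0.27), and Tnni3 fell by 0.63, Myl2 by 0.50 and Myl3 by 0.33, the last at -0.25 without samples 4 to 6 (adjusted p = 0.148, limma). With quantile normalization the median of the cardiomyocyte markers was 0.05, with 1 higher and 2 lower, and that of the pericyte markers -0.01.

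The genes most like each member were ranked over 24 samples by Spearman's rho after the mean of each group in each set was removed, among 11456 other genes. The first was Pkd1 for Pecam1 (rho = 0.88), Zbtb46 for Cdh5 (rho = 0.85), Rasip1 for Esam (rho = 0.83), Cmtm6 for Emcn (rho = 0.91), Trp53i11 for Tie1 (rho = 0.91), Farp1 for Tek (rho = 0.92), Tbc1d8b for Angpt1 (rho = 0.90), Ostc for Angpt2 (rho = 0.87), Slc35f6 for Apln (rho = 0.94) and Nck2 for Aplnr (rho = 0.85). Zbtb46 was also the second gene for Tie1 (rho = 0.90), and Ets1 was the second for Aplnr (rho = 0.83). These genes lead a ranking and have no test.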
